A study of Mus musculus with 2 samples.

Results

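The genes described here are nuclear-encoded subunits of oxidative phosphorylation, read in single lung cells of tumor-bearing mice. They were chosen by symbol, as genes whose names begin with Ndufa, Ndufb, Ndufc, Ndufs or Ndufv and a digit, with Uqcr, with Cox4 to Cox8, or with Atp5, leaving out symbols with -ps. A gene also needed 200 unique molecular identifiers (UMIs) over both libraries. The rule found 78 genes of the 32285 genes in the data, from 81 symbols that fit the name pattern. Of these, 35 belonged to complex I, 8 to complex III, 18 to complex IV and 17 to complex V, with Ndufa4 and Ndufa4l2 counted in complex IV, and they lay on 19 chromosomes. Cox8b, with 214 UMIs, was the lowest gene inside the limit, and Cox7b2 and Cox8c, with 0 UMIs, were outside it. The third symbol left out was Ndufb1-ps, by its name.

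Lungs came from female BALB/cJ mice, 12 weeks of age, that carried a 4T1 tumor, a mouse mammary carcinoma line, of 14 days. From day 1 after inoculation with 100000 tumor cells the mice received intravenous saline or cargo-free PLG nanoparticles (NPs, particles of a degradable polymer) every 3 days, 5 doses by the design text. There was 1 saline library and 1 NP library, each a pool of 4 mice by the labels and of 5 by the methods, so mice within a pool cannot be told apart. With 1 library per condition no test was made, and all intervals are 95% intervals that cover counting error only.

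Oxidative phosphorylation passes electrons from NADH through complex I, and from succinate through complex II, to complex III, cytochrome c and complex IV, which reduces oxygen. The proton gradient built on the way drives ATP synthase, complex V. A small set of core subunits of complexes I, III, IV and V is encoded in mitochondrial DNA (the mt- genes), and the rest are made from nuclear DNA and imported. The genes described here are those of the rest that fit the name rule, which misses subunits such as Ndufab1 and Cyc1. Mature neutrophils are known for few mitochondria and a reliance on glycolysis, whereas macrophages and monocytes carry many.

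The saline and NP libraries held 91168129 and 90081747 UMIs. After keeping barcodes with 500 to 5000 detected genes and mt- genes under 7.5% of UMIs, 8662 saline and 8333 NP cells remained, of which 21 barcodes occurred in both libraries. The median cell held 6474.5 UMIs in saline and 6008 in NP. Cells fell into 30 clusters, made without the 78 genes and the mt- genes. By marker genes 25 clusters were placed in 12 classes, which held 15800 cells, and 5 clusters were left unnamed. Every class had all of its markers detected except natural killer (NK) cells, with 7 of 8. In 7 of the 12 classes every marker was at its highest in its own class, against 6 of 9 markers in monocytes, 5 of 6 in interstitial macrophages, 9 of 10 in neutrophils and in epithelial cells, and 7 of 8 in NK cells. Cluster 19, the interstitial macrophages, had a conventional dendritic cell score at 0.83 of its best score, and the mural cluster 23 a fibroblast score at 0.81 of its best. Levels are given as CPM, the UMIs of a gene or set scaled to the UMI total of its class. A UMI counts 1 captured transcript, so CPM was not divided by gene length, and values of different genes are shares of UMIs on that scale.

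Upstream sequences were available for 63 of the 78 genes from RefSeq (GRCm38.p6), in windows of 250 bases before to 50 bases after the annotated start. The 250 bases before the start are shown for Atp5k and Ndufa3, the genes with the highest NP to saline ratios in neutrophils and monocytes, and for the isoform pair Cox6b1 and Cox6b2, described with the other isoforms. Capitals mark the letters of an NRF1 motif (GCGCANGCG), an ETS motif (CCGGAAG), a YY1 motif (AAGATGGC) or a TATA motif (TATAAA), each searched on both strands.
Atp5k, chr5:108434400-108434649, minus strand: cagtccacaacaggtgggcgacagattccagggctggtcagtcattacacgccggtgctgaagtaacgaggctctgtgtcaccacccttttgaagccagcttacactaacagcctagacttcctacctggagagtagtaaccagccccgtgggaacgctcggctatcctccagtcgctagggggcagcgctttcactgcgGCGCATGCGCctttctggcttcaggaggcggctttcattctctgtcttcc
Ndufa3, chr7:3617123-3617372, plus strand: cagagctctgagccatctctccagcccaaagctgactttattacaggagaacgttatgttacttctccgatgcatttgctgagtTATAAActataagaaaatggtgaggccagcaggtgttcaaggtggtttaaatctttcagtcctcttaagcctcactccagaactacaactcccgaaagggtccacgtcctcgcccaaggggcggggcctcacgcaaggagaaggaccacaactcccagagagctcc
Cox6b1, chr7:30626115-30626364, minus strand: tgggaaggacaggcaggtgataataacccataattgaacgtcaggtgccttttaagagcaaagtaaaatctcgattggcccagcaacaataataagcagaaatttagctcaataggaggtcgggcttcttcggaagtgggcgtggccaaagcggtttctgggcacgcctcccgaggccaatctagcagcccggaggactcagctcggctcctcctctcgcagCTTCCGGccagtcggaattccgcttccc
Cox6b2, chr7:4753095-4753344, minus strand: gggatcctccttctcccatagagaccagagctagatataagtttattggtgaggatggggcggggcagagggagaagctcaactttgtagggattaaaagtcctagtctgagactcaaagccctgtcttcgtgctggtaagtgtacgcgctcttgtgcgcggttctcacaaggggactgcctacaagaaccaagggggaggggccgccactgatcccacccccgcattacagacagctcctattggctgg
The Atp5k sequence held the NRF1 letters in a palindrome read on both strands, the Cox6b1 sequence held the ETS letters near its end, and the Cox6b2 sequence held none of the 4 motifs. Over whole windows, the NRF1 letters stood in 18 of 63 genes (28.6%), against 7.03% of all 27025 genes in the table and 15.6% of the 9270 genes with a window that were also detected at 200 UMIs. The ETS letters stood in 23.8% (9.93% of all, 20.6% of detected), the YY1 letters in 14.3% (3.19% and 5.36%), a hypoxia-response motif (ACGTG) in 23.8% (21.8% and 29.7%) and the TATA letters in 11.1% (15.7% and 8.96%). NRF1, ETS factors of the GABP type and YY1 are known regulators of respiratory chain genes. The letters are a description of these windows and say nothing of binding. Among the genes with no matched window were Atp5a1, Atp5f1, Atp5mpl, Cox4i1, Cox4i2, Cox6a2, Cox6c, Ndufa2, Ndufa4l2, Ndufb9, Ndufs1, Uqcrb, Uqcrc2 and Uqcrq.

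Summed over the 78 genes, the level was highest in monocytes and lowest in neutrophils in both libraries. In monocytes the sum was 22345 CPM in saline (95% CI 22262 to 22429) and 22365 CPM in NP (22304 to 22426). In neutrophils it was 8209 CPM in saline (8183 to 8234) and 7693 CPM in NP (7658 to 7728). The saline monocyte sum was therefore 2.72 times the neutrophil sum, and 1.71 times when CPM was computed without the 20 most abundant genes of each class. A median monocyte held 339 UMIs of these genes in saline and 336 in NP, from 67 different genes in each. A median neutrophil held 53 and 40 UMIs, from 31 and 25 genes.

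Between these ends the classes formed a graded order in saline. Alveolar macrophages (20190 CPM), NK cells (20000 CPM) and plasmacytoid dendritic cells (19987 CPM) had overlapping intervals, as did mural cells (18194 CPM) and interstitial macrophages (17889 CPM). Endothelial cells followed at 16620 CPM, then T cells at 15690 CPM and epithelial cells at 15396 CPM, with overlapping intervals for the last pair, then B cells at 13962 CPM and basophils at 13261 CPM. In NP, mural cells (20212 CPM), NK cells (19862 CPM), alveolar macrophages (19836 CPM) and plasmacytoid dendritic cells (19748 CPM) overlapped, and T cells (17534 CPM) stood above endothelial cells (17111 CPM). Some classes were small, with 18 saline and 34 NP plasmacytoid dendritic cells, 21 and 39 basophils, and 31 and 116 mural cells. Neutrophil markers were also present unevenly, against 309139 and 323269 CPM in neutrophils themselves. They summed to 111587 and 12140 CPM in mural cells and 52280 and 27598 CPM in endothelial cells. In interstitial macrophages they were higher in NP, at 5750 and 27016 CPM. Their part in the order of the classes was not tested.

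**Figure D1:**
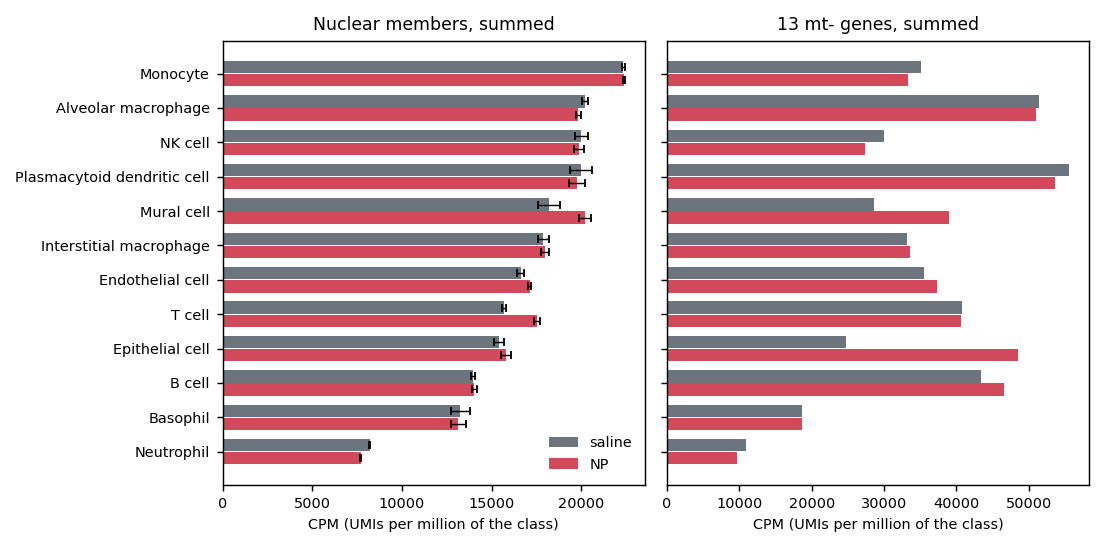
Summed level of the 78 nuclear genes (left) and of the 13 mt- genes (right) in each cell class, in CPM, with 1 bar per library and exact 95% Poisson intervals for the nuclear genes. Monocytes have the longest nuclear bars, at 22345 and 22365 CPM, and neutrophils the shortest in both panels, at 8209 and 7693 CPM for the nuclear genes.

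Most single genes followed the sum at its lower end. Neutrophils were the lowest class in both libraries for 59 of the 78 genes. The highest class in both libraries was the monocyte for 22 genes, the alveolar macrophage for 11, the mural cell for 6, the NK cell for 4, plasmacytoid dendritic cells and endothelial cells for 2 each, and T cells and epithelial cells for 1 each. For the remaining genes the highest class differed between the libraries. The shares of all genes with the same lowest or highest class were not computed. Over all genes the median log2 ratio of monocytes over neutrophils was 1.01 in saline and 1.12 in NP. Lower levels in neutrophils were thus not particular to the 78 genes. Of 73 genes with enough UMIs to compare, 59 were at least 2-fold higher in monocytes than in neutrophils in both libraries, beside 48.8% of all genes. For alveolar macrophages against neutrophils the count was 52 of 72, beside 47% of all genes, and the median log2 ratio was 1.53 in saline and 1.69 in NP, against 0.97 and 1.04 over all genes.

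Within each complex, the genes with the widest range across classes were chosen for description. In complex I these were Ndufa5 and Ndufc2, both accessory subunits. Ndufa5 was at 5.78 CPM in neutrophils of each library, against 133 and 165 CPM in endothelial cells and 165 and 217 CPM in mural cells (saline and NP). Ndufc2 was at 12.3 and 11.4 CPM in neutrophils and at 284 and 270 CPM in epithelial cells, its highest class. Both were lower in neutrophils than the sum of the complex would give, which stood at 2385 and 2189 CPM in neutrophils against 6261 and 6162 CPM in monocytes. At the narrow end, Ndufb9, another accessory subunit, was at 203 and 177 CPM in neutrophils and 270 and 269 CPM in monocytes.

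The widest ranges in complex III were narrower than those in complex I. Uqcrb was at 45.1 and 44.3 CPM in neutrophils and 404 and 369 CPM in mural cells, and Uqcrc1, a core protein of the complex, was at 28.4 and 24.3 CPM in neutrophils and 126 and 123 CPM in monocytes. In complex V the widest ranges belonged to Atp5g1 and Atp5g2, which with Atp5g3 encode the same mature c subunit of the membrane rotor. Atp5g1 was at 17.5 and 13.1 CPM in neutrophils against 242 and 236 CPM in alveolar macrophages. Atp5g2 was at 40.9 and 35.8 CPM against 466 and 480 CPM, and Atp5g3 was at 46.9 and 38.6 CPM against 343 and 300 CPM. All 3 c-subunit genes were therefore far lower in neutrophils, whereas Atp5l, subunit g at the dimer interface of the same enzyme, was at 431 and 420 CPM in neutrophils and 719 and 746 CPM in monocytes.

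Neutrophils accordingly held a different mix of subunit transcripts, and not only fewer of them. The 5 most abundant genes over both libraries were Cox8a (134760 UMIs), Cox4i1 (115305), Atp5e (106955), Atp5l (94714) and Cox6c (87590). Cox8a made up 7.21% and 7.70% of the UMIs of the 78 genes in neutrophils, against 4.39% and 4.42% in the other named classes together. Scaled in this way, Ndufb9 was higher in neutrophils by 1.06 and 0.94 on the log2 scale, Ndufb7 by 0.95 and 0.91, and Atp5f1, subunit b of the peripheral stalk, by 0.87 and 0.93. At the other end, Ndufa5 was at -2.79 and -2.83 and Ndufc2 at -2.41 and -2.40. These ratios compare classes rebuilt from the same cells and are a description.

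Isoforms of complex IV subunits had the sharpest boundaries between classes. Cox4i2, the lung and hypoxia-associated isoform of subunit 4, was at 1041 CPM in saline (95% CI 896 to 1204) and 1400 CPM in NP (1314 to 1492) mural cells. Of its 183 and 967 mural UMIs, 176 and 953 lay in cluster 25, whose leading genes included Postn, Gucy1a1, Higd1b and Pdgfrb. There it was at 1867 and 2391 CPM, with a UMI in 12 of 12 saline and 57 of 57 NP cells. The other mural cluster, led by Hhip, Aspn and Acta2, was at 86.0 and 48.0 CPM. Neutrophils held 0.63 and 0.67 CPM, with a UMI in 28 of 5574 and 15 of 3081 cells, although the median neutrophil was deeper (6043.5 and 5235 UMIs) than the median mural cell (4059 and 4171.5 UMIs). Endothelial cells held 26.9 and 24.8 CPM. Barcodes with under 50 UMIs, which stand for free RNA, held 21.1 and 39.1 CPM, and their part in the endothelial values was not tested.

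Ndufa4l2, a hypoxia-induced relative of Ndufa4, had the same cluster as its peak. It was at 689 and 963 CPM in cluster 25, 461 and 575 CPM in mural cells as a whole, 14.0 and 12.9 CPM in endothelial cells and 8.04 and 18.8 CPM in nearly empty barcodes. The widespread partner genes did not share this pattern. Cox4i1 was at 569 and 631 CPM in mural cells and highest in monocytes, at 1114 and 1043 CPM, and Ndufa4 was at 228 and 408 CPM in mural cells and highest in endothelial cells, at 567 and 563 CPM. Within cluster 25 Cox4i1 was at 456 and 595 CPM and Ndufa4 at 180 and 366 CPM, so that on the CPM scale both restricted isoforms gave more UMIs than their widespread partners there.

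Cox6a2, the heart and muscle isoform of subunit 6a, peaked in plasmacytoid dendritic cells. It was at 1564 CPM in saline (1396 to 1747) and 1117 CPM in NP (1018 to 1224), with a UMI in 18 of 18 and 27 of 34 cells at median depths of 10557.5 and 11729 UMIs. Its partner Cox6a1 was at 149 and 196 CPM in the same cells, so that the muscle isoform gave the larger number of UMIs there in both libraries. Epithelial cells held Cox6a2 at 122 and 230 CPM and Cox6a1 at 132 and 191 CPM, while neutrophils held 0.19 and 0.17 CPM, with a UMI in 9 of 5574 and 4 of 3081 cells. In the unnamed cluster 20, whose leading genes included skeletal muscle genes, 34 Cox6a2 UMIs came from 2 of 55 saline cells.

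Cox6b2, known as the testis isoform of subunit 6b, was a low transcript with its highest level in alveolar macrophages in both libraries. Alveolar macrophages held it at 60.0 CPM in saline (51.4 to 69.6) and 36.2 CPM in NP (30.8 to 42.4), and monocytes at 24.2 CPM (21.5 to 27.1) and 12.5 CPM (11.1 to 14.0). Neutrophils held 60 and 34 UMIs in 5574 and 3081 cells, under 2 CPM in each library, and nearly empty barcodes held it at 6.67 and 7.92 CPM. Basophils held Cox6b2 at 5.74 and 22.3 CPM, from only 1 and 6 UMIs. Among monocytes it followed the cluster, with 27.8 and 17.6 CPM in cluster 5 (F13a1, Ccr2, Vcan), 17.6 and 9.20 CPM in cluster 10 (Aif1, Ms4a6d, Cfb) and 1.33 and 2.19 CPM, from 1 and 8 UMIs, in cluster 12 (Cd300e, Treml4, Adgre4). The widespread Cox6b1 was at 545 and 531 CPM in monocytes and 250 and 242 CPM in neutrophils.

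The muscle isoforms Cox7a1 and Cox8b were scarce. Cox7a1 was highest in alveolar macrophages, at 10.7 and 10.5 CPM, against 390 and 364 CPM for Cox7a2. Cox8b was highest in the unnamed cluster 15, which held fibroblast and mesothelial genes, at 23.8 CPM in saline (14.9 to 36.1) and 49.2 CPM in NP (35.9 to 65.8). Cox8a, the widespread isoform, was at 1285 and 1246 CPM in NK cells, its highest class, and at 592 and 593 CPM in neutrophils. Cox7a2l was the gene highest in T cells, at 518 and 470 CPM.

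**Figure D2:**
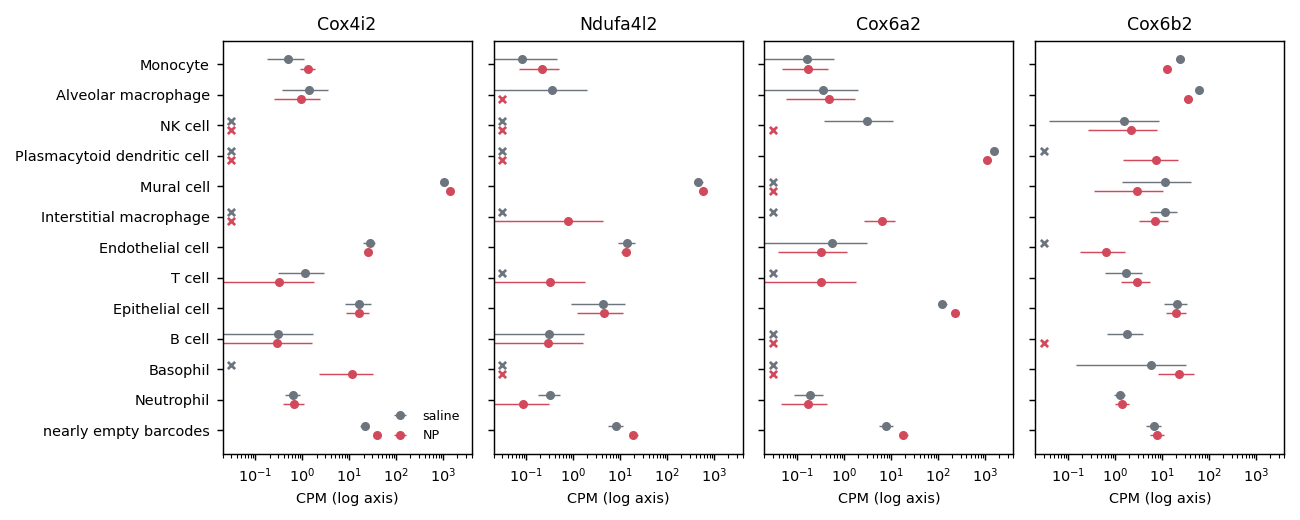
CPM of 4 tissue-restricted isoform genes by cell class and in nearly empty barcodes, on a log axis, with exact 95% Poisson intervals and 1 point per library. Crosses at the left edge mark 0 UMIs. Cox4i2 and Ndufa4l2 peak in mural cells, Cox6a2 in plasmacytoid dendritic cells at 1564 and 1117 CPM, and Cox6b2 in alveolar macrophages at 60.0 and 36.2 CPM.

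The 13 mt- genes did not rank the classes in the same order. Their sum was highest in plasmacytoid dendritic cells, at 55613 and 53627 CPM, and in alveolar macrophages, at 51455 and 51057 CPM, whereas monocytes were at 35172 and 33266 CPM. Neutrophils were lowest for both sets, at 10881 and 9717 CPM. Per nuclear UMI, the mt- genes gave 1.33 and 1.26 UMIs in neutrophils, 1.57 and 1.49 in monocytes, 2.55 and 2.57 in alveolar macrophages and 3.11 and 3.32 in B cells. Monocytes and B cells thus lay far apart in this ratio, in part because its divisor, the nuclear sum, was lower in B cells. The mt- sums of B cells were 43358 and 46534 CPM, above those of monocytes. Basophils, with the lowest nuclear sum after neutrophils, gave ratios of only 1.41 and 1.42. The limit of 7.5% on mt- UMIs bounds these values, and its part was not tested. Of plasmacytoid dendritic cells 44.4% and 26.5% had mt- shares between 6% and the limit, of alveolar macrophages 22.8% and 20.1%, and of neutrophils 0.251% and 0.195%. Nearly empty barcodes gave 4.05 and 4.53 mt- UMIs per nuclear UMI.

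Neutrophils were clustered again without the 78 genes, which gave 7 sub-clusters. The 32 saline and 25 NP cells of the cycling sub-cluster 6, with Mki67 and Top2a, had the highest sum at 12952 and 12985 CPM. Sub-cluster 1 (Saa3, Cxcr4, Atf3) followed at 9802 and 9824 CPM, and sub-cluster 5, with the secondary granule genes Ltf and Ngp, at 8511 and 8458 CPM. The lowest was sub-cluster 2 (Prok2, Retnlg, Mmp8), at 6797 and 6247 CPM, so that sub-cluster 6 was 1.91 times sub-cluster 2 in saline. Sub-cluster 4, led by the interferon-induced genes Cxcl10 and Rsad2, was at 7964 CPM in 133 saline cells and 7143 CPM in 1094 NP cells. CPM and UMIs per cell ordered the sub-clusters differently, since the median depth was 23063 UMIs in sub-cluster 5 and 4081 UMIs in sub-cluster 1. Sub-cluster 7, with 25 and 31 cells, also held endothelial genes such as Calcrl and Cldn5. Cluster 20, with immature neutrophil as its best score and Mpo and Ctsg among its leading genes, was not among these cells. It was left unnamed for striated muscle genes, which summed to 1501 CPM in saline and 10.0 CPM in NP. Its 55 saline and 72 NP cells held the 78 genes at 15465 and 16938 CPM, above sub-cluster 6.

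**Figure D3:**
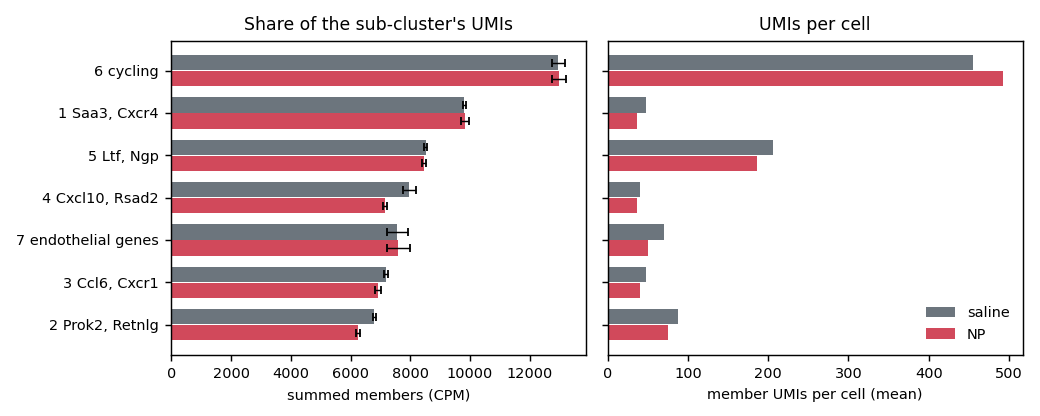
Summed level of the 78 genes in 7 neutrophil sub-clusters, as CPM with exact 95% Poisson intervals (left) and as mean UMIs per cell (right), with 1 bar per library. The cycling sub-cluster is longest in both panels, at 12952 and 12985 CPM on the left, and sub-cluster 1 is the next longest on the left but not on the right.

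For NP against saline, a gene was counted as past the fold when its CPM within a class was at least 25% higher or at least 20% lower in NP, the same fold in either direction, among genes with at least 200 UMIs over both libraries in that class. Of the 6 classes compared in this way, all left out Cox6a2, Cox7a1, Cox8b and Ndufa4l2, and all but endothelial cells left out Cox4i2. Cox6b2 was left out in neutrophils, B cells, T cells and endothelial cells, and Ndufs1 in B cells and T cells. In neutrophils the log2 ratio of the sum was -0.09 (95% CI -0.10 to -0.09), above the median of all genes at -0.13, so that relative to that median the sum was 0.04 higher. By complex the log2 ratio was -0.12 for complex I, -0.13 for III, -0.10 for IV and -0.05 for V. No gene of 72 was past the fold higher, beside 7.03% of all genes, and 10 were past it lower, beside 20.1% of all genes. The median over the 72 genes was -0.15, below the -0.13 of all genes, and 32 of the 72 lay above the median of all genes. The sum, which weights abundant genes, and the median of single genes thus lay on opposite sides of that value.

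The 10 genes below the fold in neutrophils were Ndufa10, Ndufs3, Ndufa8, Cox7a2l, Ndufb5, Atp5g1, Ndufs8, Ndufv1, Uqcrc2 and Atp5d. Of these 6 were from complex I, which supplied 35 of the 72 genes compared. Ndufa10, an accessory subunit, went from 18.2 to 12.1 CPM (log2 ratio -0.59, -0.78 to -0.39). Ndufs3, a core subunit, went from 11.3 to 8.15 CPM (-0.47), and Ndufa8 from 128 to 93.2 CPM (-0.45). In the other direction, Ndufa3, an accessory subunit of complex I, went from 81.2 to 97.0 CPM (0.26, 0.18 to 0.33), Atp5k, subunit e of ATP synthase, from 88.1 to 104 CPM (0.24), and Ndufv3 from 76.9 to 85.7 CPM (0.16, but -0.03 with equal weight per cell). Neutrophil cluster 0 alone went from 8728 to 7567 CPM in its sum (-0.21) and cluster 1 from 11188 to 10102 CPM (-0.15). Cluster 2 went from 6825 to 6213 CPM (-0.14), cluster 3 from 7526 to 6665 CPM (-0.18) and cluster 7 from 9529 to 7595 CPM. Cluster 8 was at 8390 and 8351 CPM, and cluster 28, with 18 cells in each library, at 13212 and 13217 CPM. The median log2 ratio of these genes lay below that of all genes in cluster 0 (-0.26 and -0.17) and cluster 1 (-0.20 and -0.11). The same held in cluster 2 (-0.19 and -0.14), cluster 3 (-0.19 and -0.12) and cluster 7 (-0.30 and -0.08). It lay above that of all genes in cluster 8 (-0.04 and -0.09) and cluster 28 (0.01 and -0.06). With each sub-cluster given its mean share in both libraries, the log2 ratio of the sum was -0.05 and 3 genes were past the fold lower, in place of 10. With equal weight per cell the count was 25, with 5% of UMIs subtracted as free RNA it was 21, and without the mitochondrial limit it was 3. The share of all genes past the fold was computed at the main setting only, so these counts have no such share beside them. The 5% was a set value and not a measured one, and it left 0 of 1398 mt-Nd3 UMIs in NP neutrophils.

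In monocytes the sums were nearly equal, at 22345 and 22365 CPM (log2 ratio 0.00, -0.01 to 0.01). Of 73 genes 2 were past the fold higher (9.64% of all genes) and 1 lower (9.81% of all genes). Atp5k went from 253 to 321 CPM (0.34, 0.28 to 0.40) and Ndufa3 from 156 to 195 CPM (0.33, 0.25 to 0.41), followed by Ndufs4 from 127 to 145 CPM (0.19). Cox6b2 went from 24.2 to 12.5 CPM (-0.95, -1.19 to -0.71) and Cox7a2l from 454 to 391 CPM (-0.22), although the Cox7a2l ratio was 0.04 in cluster 12 alone. Each of the 3 monocyte clusters on its own was higher in NP, from 23200 to 24105 CPM in cluster 5, from 21109 to 22283 CPM in cluster 10 and from 15897 to 16742 CPM in cluster 12. Their cell numbers went from 551 to 700, from 159 to 456 and from 101 to 397, so that the cluster with the lowest level held more of the NP monocytes. Within cluster 5 the Cox6b2 ratio was -0.66, and within cluster 10 it was -0.94.

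Alveolar macrophages and B cells differed little between the libraries. In alveolar macrophages the log2 ratio of the sum was -0.03 (-0.04 to -0.01) and none of 73 genes was past the fold higher (3.71% of all genes). Cox6b2 was the 1 gene past the fold lower (5.89% of all genes), from 60.0 to 36.2 CPM (-0.73, -1.05 to -0.41). It was followed by Ndufv2, a core subunit of complex I, from 124 to 102 CPM (-0.29) and Ndufa8 from 148 to 128 CPM (-0.21), while Ndufa3 went from 152 to 184 CPM (0.28), Ndufa9, with 145 and 249 UMIs, was at 0.21 and Atp5md went from 223 to 256 CPM (0.20). In B cells the sum was 13962 and 14034 CPM, 1 of 71 genes was past the fold higher (6.52% of all genes) and 0 lower (9.74% of all genes), and the 1 gene was Atp5k, from 160 to 203 CPM (0.34). Taken alone, the B cell clusters had lower sums in NP, from 15007 to 14541 CPM in cluster 6 (-0.05, -0.06 to -0.03) and from 9803 to 9756 CPM in cluster 24, which held 50 saline and 27 NP cells. In cluster 6 alone the Atp5k ratio was 0.27 and 0 genes were past the fold higher. The mt- sum of B cells went from 43358 to 46534 CPM (0.10, 0.09 to 0.11) and ranged from -0.16 to 0.11 over the alternative settings. Neutrophil markers summed to 40541 CPM in saline and 21515 CPM in NP B cells, and their part in the result was not tested.

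In endothelial cells the sum went from 16620 to 17111 CPM (0.04, 0.02 to 0.06). Of 73 genes 1 was past the fold higher (8.04% of all genes) and 0 lower (8.76% of all genes). Ndufa9, an accessory subunit, went from 48.2 to 66.0 CPM (0.45, 0.12 to 0.81) and Ndufa5 from 133 to 165 CPM (0.31). The lowest ratios were those of Ndufs1 at 37.0 and 32.5 CPM (-0.19), Atp5f1 at 277 and 244 CPM (-0.18) and Atp5g3 at 162 and 144 CPM (-0.17), and the intervals of Ndufs1 and Atp5g3 included 0. With the 78 genes and the mt- genes among the variable genes these 2 ratios were 0.0078 and 0.03. The count past the fold ranged from 0 to 15 genes higher over the alternative settings, and the sum from -0.01 to 0.17, and the cause was not tested. No share of all genes was computed at these settings. Neutrophil markers summed to 52280 CPM in saline and 27598 CPM in NP endothelial cells, with all 10 markers detected in each, and their part in the result was not tested.

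T cells had the highest ratio of the sum among the 6 classes compared in this way. The sum went from 15690 CPM in 512 saline cells to 17534 CPM in 420 NP cells (0.16, 0.14 to 0.18). All 4 complexes shared it, at 0.15 for complex I, 0.18 for III, 0.17 for IV and 0.15 for V. Of 71 genes 65 lay above 0 and 6 below, while 51% of all genes in T cells lay above 0. In all 7 genes were past the fold higher (7.53% of all genes) and 0 lower (7.27% of all genes), and the median was 0.15 against 0.00 over all genes. The 7 were Atp5k, from 166 to 234 CPM (0.50, 0.34 to 0.66), Atp5md, from 169 to 234 CPM (0.47), Uqcr11, from 139 to 185 CPM (0.41), Ndufv3, Ndufb8, Ndufs8 and Ndufa3, and Cox7c, from 456 to 570 CPM, lay just under the fold. Cox7a2l was lowest, at 518 and 470 CPM (-0.14).

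Both T cell clusters had higher sums in NP, from 14875 to 16326 CPM in cluster 9 (Dapl1, Lef1) and from 17852 to 19781 CPM in cluster 14 (Cxcr6, Icos). The sum ratio ranged from 0.12 to 0.18 over the alternative settings, while the count past the fold ranged from 0 genes at 1.5-fold to 13 genes when cells needed 800 detected genes. Shares of all genes were not computed for those counts. The mt- genes of T cells stood at 40807 and 40714 CPM. Neutrophil markers summed to 19176 CPM in saline and 11151 CPM in NP T cells, with all 10 detected in each. With 5% of UMIs subtracted as free RNA the ratio of the sum was 0.15. Nearly empty barcodes held the same markers at 205256 CPM in saline and 120055 CPM in NP, and the share of free RNA in T cells was not measured. The 78 genes themselves were at 15282 CPM in saline and 18447 CPM in NP in nearly empty barcodes, higher in NP as well. The part of free RNA in the T cell ratio was not tested.

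**Figure D4:**
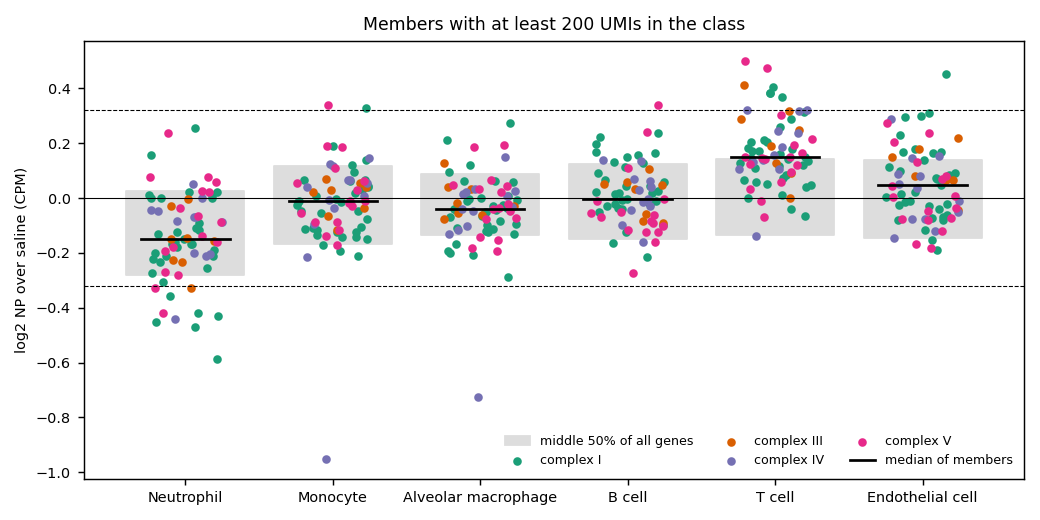
Log2 ratio of NP over saline CPM for each of the nuclear genes with at least 200 UMIs in 6 classes, 1 point per gene colored by complex. Black bars are medians of these genes, gray boxes the middle 50% of all genes in the class, and dashed lines 25% higher and 20% lower. T cell genes center at 0.15 and neutrophil genes at -0.15, and the lowest points in monocytes (-0.95) and alveolar macrophages (-0.73) are Cox6b2.

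Atp5k and Ndufa3 had positive ratios in all 6 of these classes, which share the same 2 libraries and are therefore not separate observations. For Ndufa3 the log2 ratios were 0.26 in neutrophils, 0.33 in monocytes, 0.28 in alveolar macrophages, 0.22 in B cells, 0.37 in T cells and 0.17 in endothelial cells, where the interval included 0. Ndufa3, Ndufa9, Ndufs1, Ndufs3, Atp5md, Atp5f1, Uqcrb, Cox4i1 and Cox6a2 are among 27 genes with an exon that overlaps a gene on the opposite strand, and their counts are less certain, since the sources used here do not say whether counting used the strand. In the remaining classes the sum was 17889 and 17989 CPM in interstitial macrophages, 19987 and 19748 CPM in plasmacytoid dendritic cells, 20000 and 19862 CPM in NK cells and 13261 and 13150 CPM in basophils. Mural cells went from 18194 to 20212 CPM (0.15, 0.10 to 0.21), below the median of all their genes at 0.24. The mural clusters differed in direction, from 19085 to 18067 CPM in cluster 23 (-0.08), with 19 and 59 cells, and from 17424 to 21783 CPM in cluster 25 (0.32), with 12 and 57 cells. The mural ratio ranged from -0.09 to 0.32 over the alternative settings, so its direction depends on them. Striated muscle genes summed to 17.1 and 198 CPM in mural cells. The summed neutrophil markers there went from 111587 to 12140 CPM, with all 10 detected in each library, and the part of these genes in the result was not tested. Epithelial cells were at 15396 and 15791 CPM, while their mt- genes were at 24742 and 48482 CPM and their median cell held 1330 and 3831 detected genes.

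The mt- genes differed from each other in their ratios within classes. The log2 ratio of their sum was -0.16 in neutrophils and -0.08 in monocytes. mt-Co1, a core subunit of complex IV and the most abundant of them in neutrophils, went from 3523 to 2870 CPM (-0.30) in neutrophils and from 6280 to 5683 CPM (-0.14) in monocytes, where it was 0.06 in cluster 12 alone. mt-Nd3, a complex I subunit, went from 37.1 to 58.1 CPM (0.65, 0.54 to 0.75) in neutrophils and from 386 to 516 CPM (0.42) in monocytes, and its ratio was 0.46 in alveolar macrophages, 0.50 in endothelial cells and 0.59 in T cells. Nearly empty barcodes held mt-Nd3 at 720 CPM in saline and 1350 CPM in NP, higher in NP as well, and their part in these ratios was not tested. With 5% of UMIs subtracted as free RNA, 53.9 of 1779 saline and 0 of 1398 NP mt-Nd3 UMIs of neutrophils were left. The positive ratio was thus lost there, and with no NP UMI left no direction could be read. The log2 ratio of -3.17 in that setting is a bound set by the floor of 3 counts for NP. mt-Atp8, a complex V subunit, went from 33.1 to 36.2 CPM (0.13) and from 110 to 136 CPM (0.30). The lowest-count gene, mt-Nd6, had intervals that included 0 in both classes.

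Over all cells, the sum of the 78 genes went from 12301 CPM in saline to 15779 CPM in NP, a log2 ratio of 0.36 that exceeded the ratio of each of the 12 classes. The median of all genes was 0.37. Neutrophils, the class with the lowest level, were 64.4% of saline and 37.0% of NP cells, monocytes 9.36% and 18.6%, and endothelial cells 3.82% and 14.5%. With the saline level of every cluster kept and the NP mix of clusters applied, the sum was 15556 CPM. With both libraries set to their mean mix, it was 13929 CPM in saline and 13967 CPM in NP, a log2 ratio of 0.00. The mt- genes behaved alike, from 20920 to 27966 CPM (0.42) as measured and -0.02 at the mean mix.

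**Figure D5:**
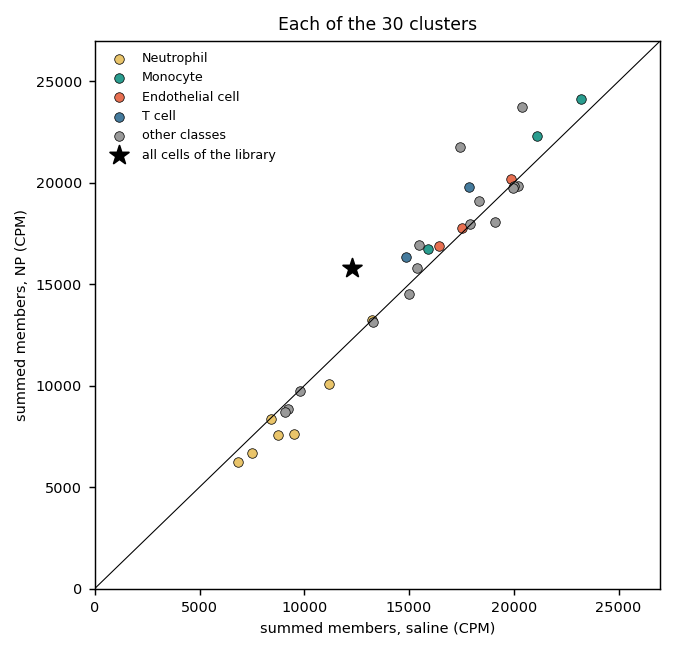
Summed level of the 78 genes in saline (horizontal axis) and NP (vertical axis) in CPM, 1 point for each of the 30 clusters, with the line of equal levels. The star, all cells of each library, lies at 12301 and 15779 CPM, above the line, while most clusters lie near the line. Most neutrophil clusters lie at the lower left, with neutrophil cluster 28 higher, at 13212 and 13217 CPM. B cell cluster 24 and the unnamed clusters 18 and 22 also lie at the lower left.

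Other genes of the pathway were counted by list against the same shares of all genes, 20.1% lower and 7.03% higher in neutrophils. In neutrophils 1 of 7 genes of complex II, cytochrome c and the acyl carrier subunit was past the fold lower, Ndufab1 at 20.2 and 15.6 CPM, and 0 were higher. Of 27 assembly factors 5 were lower and 0 higher, from Atpaf2 at 3.53 and 2.29 CPM (-0.63) to Cox17, the copper chaperone of complex IV, at 225 and 257 CPM (0.19). Of 14 genes of mitochondrial DNA expression 9 were lower and 0 higher, with Polg2, the accessory subunit of the mitochondrial DNA polymerase, at 4.45 and 2.70 CPM (-0.72) and the RNA-binding Slirp at 8.85 and 9.89 CPM (0.16). Of 13 genes of the citric acid cycle and pyruvate dehydrogenase 5 were lower and 0 higher, with Suclg1 at 36.1 and 23.9 CPM (-0.59) and Dld at 19.1 and 18.8 CPM. Of 9 carriers and porins 2 were lower and 0 higher, with the uncoupling protein gene Ucp2 at 324 and 251 CPM (-0.36) and the phosphate carrier Slc25a3 at 148 and 154 CPM (0.06). None of 7 biogenesis regulators passed, with Yy1 at 108 and 88.8 CPM (-0.28) and Gabpb1 at 11.4 and 12.1 CPM.

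In monocytes fewer genes of these lists were past the fold, where 9.64% of all genes were higher and 9.81% lower. Past the fold were 0 of 7 genes of complex II and cytochrome c, with Cycs, cytochrome c itself, at 191 and 231 CPM (0.28) and Sdhd at 126 and 116 CPM. Of 42 assembly factors 2 were higher and 4 lower, with Ndufaf6 at 5.48 and 7.14 CPM (0.38), Cox17 at 189 and 246 CPM (0.38) and Nubpl at 7.68 and 5.50 CPM (-0.48). Of 21 genes of mitochondrial DNA expression 1 was lower, Mterf4 at 10.2 and 6.93 CPM (-0.56), and Mrps18b was highest at 21.3 and 24.8 CPM. Of 8 regulators 1 was higher, Gabpb1 at 6.78 and 8.53 CPM (0.33), with Yy1 lowest at 124 and 111 CPM. None of 16 citric acid cycle genes and none of 10 carriers passed, with Suclg2 at 14.5 and 16.4 CPM and Idh3b at 83.8 and 73.5 CPM in the first list, and Chchd10 at 16.9 and 18.3 CPM and Slc25a4 at 137 and 111 CPM in the second.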

How the data were processed

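Raw count matrices of UMIs were deposited by the authors for 1 saline and 1 NP library. Per the labels and methods, minced lungs were digested with liberase, red cells were lysed, and reads were processed with bcl2fastq and Cell Ranger (6.0 in the submitters' notes, 4 in the matrix header) on mm10. The gene model release is not given in the sources used here.

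Barcodes with 500 to 5000 detected genes and under 7.5% mt- UMIs were kept, and doublets were not removed. Counts were scaled to 10000 per cell. Leiden clusters (resolution 1, sub-clusters 0.5, 20 neighbors) used 30 principal components of 2000 variable genes, without the 78 genes and the mt- genes. Clusters were named from marker lists, so the names are rebuilt and not the study's. Of the 5 unnamed clusters, 2 held more markers of another class, 1 was mixed (a second class at 0.75 or more of the best score and at least 2 of its markers among the top 10 genes) and 2 had at least 4 of 15 striated muscle genes among their top 10, a list written after the clusters were seen. Clusters 19 and 23 also passed the score limit, with 0 such markers among their top 10, and kept their names. UMIs of a class were pooled. In ratios a count under 3 was set to 3, levels had exact Poisson intervals, and log2 ratios had exact conditional binomial 95% intervals. The calculations were tested on simulated data.

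Genes were named by rule: the 3 highest and 3 lowest ratios in neutrophils, monocytes, endothelial cells and alveolar macrophages, the 5 most abundant genes, the 2 widest ranges per complex, isoforms of 1 subunit, the mt- genes and the ends of each pathway list. A gene that the rule also names is not reported here. The narrowest ranges, the genes skewed in their share in neutrophils, the remaining neutrophil genes past the fold, those named in T cells and B cells, and Ndufab1 were named after their values were seen. The genes and lists were chosen with earlier results of these data known. The settings varied were the limits on barcodes, doublets, clustering, scaling, weights per cell, free RNA, the fold and the UMI minimum, and 8 more were chosen after seeing the data. Software was scanpy 1.11.5 with leidenalg 0.10.2, igraph 0.11.9 and scikit-learn 1.9.0, with Python 3.11.15, pandas 2.3.3, numpy 2.4.6, scipy 1.17.1 and matplotlib 3.10.9.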

Additional observations from a re-analysis of the deposited data

Results flagged for a closer look

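The 303 saline and 542 NP barcodes over the mitochondrial limit, which entered no class, held the 78 nuclear genes at 13038 CPM (95% CI 12818 to 13260) and 15129 CPM (14948 to 15311). These values drew attention because the barcodes lie outside every comparison. Ndufb1-ps, which the name rule leaves out, held 64113 UMIs over both libraries and was at 569 and 661 CPM in monocytes and 231 and 266 CPM in neutrophils. The log2 ratio of NP over saline of the summed genes was 0.16 in T cells and -0.09 in neutrophils, and their difference was 0.25. This difference was not tested, since there is 1 library per condition. Relative to the median of all genes in each class, the ratio of the sum was 0.16 in T cells and 0.04 in neutrophils. The median over single genes was 0.15 in T cells, against 0.00 over all genes. In neutrophils that median was -0.15, against -0.13 over all genes.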

How the results depend on the processing

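No paired analysis was possible because each condition has 1 library, and for the same reason no library could be left out. Of 21 alternatives 13 were planned and 8, the muscle clusters kept and single clusters of monocytes, B cells and mural cells, were chosen after seeing the data. For the log2 ratio of the summed 78 genes in neutrophils (-0.09), the value was -0.014 without the mitochondrial limit, -0.074 with striated muscle clusters kept, -0.17 with equal weight per cell, -0.075 when scaled without the 20 top genes, 0.035 centred on the median of all genes, -0.14 with 5% free RNA subtracted and -0.055 at the mean sub-cluster share. For the mt- sum in neutrophils (-0.16) the same settings gave -0.12, -0.13, -0.17, -0.14, -0.034, -0.47 and -0.13, and a 15% limit -0.15. The positive mt-Nd3 ratio of neutrophils (0.65) was lost with free RNA subtracted. No direction could be read there, since no NP UMI was left and -3.17 is a bound set by the floor of 3 counts.

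Neutrophil genes past the fold higher (0) numbered 3 without the limit and 2 when centred. Those lower (10) numbered 3 without the limit, 5 with muscle clusters, 25 with equal weight, 3 when centred, 21 with free RNA subtracted, 3 at the mean share and 1 at 1.5-fold. As in the other classes, no share of all genes was computed at these settings.

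In monocytes the summed ratio (0.00) was 0.033 at 15%, 0.036 without the limit, -0.016 with equal weight, 0.0091 without the top genes, 0.032 when centred, -0.0071 with free RNA subtracted, and 0.055, 0.078 and 0.075 in clusters 5, 10 and 12. Their mt- sum (-0.08) was -0.055, -0.075, -0.11, -0.073, -0.050, -0.14, -0.043, -0.065 and -0.022 in the same order, and -0.091 with 800 genes. Genes past the fold higher (2) numbered 0 with equal weight, 0 at 1.5-fold, 6 in cluster 10 and 4 in cluster 12, and lower (1) 0 in cluster 10.

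The endothelial sum (0.04) was 0.077 at 15%, 0.071 without the limit, 0.17 with 800 genes, -0.0080 at resolution 2, 0.16 with the 78 genes and mt- genes among the variable genes, -0.0096 without doublets and -0.011 with equal weight. The alveolar macrophage sum (-0.03) was -0.042 without doublets, -0.0083 without the top genes and -0.0036 when centred. The monocyte to neutrophil fold (2.72) was 2.62 at 15%, 2.54 without the limit, 2.69 with 800 genes, 2.66 with muscle clusters, 2.49 with equal weight, 1.71 without the top genes and 2.89 with free RNA subtracted. The fold of sub-cluster 6 over 2 (1.91) was 1.81, 1.79 and 2.02 under the last 3. Where no construction shows it, the cause was not tested. A further 675 values covered single genes, T, B and mural cells, and the mt- sums and counts past the fold of endothelial cells and alveolar macrophages. Among them the endothelial mt- sum (0.07) ranged from -0.06 to 0.20. Of the 675 values, 546 stayed within their counting interval or 1.5 times and 128 moved beyond it. The remaining 1, the mt-Nd3 ratio at its bound, was counted as reversed. Scrublet's own threshold marked 1 saline and 311 NP cells, so the 5% highest scores were removed in each library.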

Other observations

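AA467197, the mouse counterpart of a human paralogue of NDUFA4 and not one of the 78 genes, was noticed after its values were seen. It was at 310 CPM in saline and 312 CPM in NP neutrophils, against 81.1 and 70.4 CPM for Ndufa4 in the same cells. In monocytes the order was the opposite, with 3.60 and 3.94 CPM for AA467197 and 481 and 479 CPM for Ndufa4. Nearly empty barcodes held AA467197 at 159 and 91.6 CPM, and saline endothelial cells at 54.9 CPM against 21.4 CPM in NP.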
